A study of Homo sapiens with 46 samples.

Results

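The comparison described here sets RNA-seq of HEK293 Flp-In T-REx cells given siRNA against ASCC3 beside RNA-seq of the same line given the control siRNA. Its 4 libraries, 2 per group, were chosen by their titles from the 46 libraries of the study. The study combined footprinting of lone ribosomes (monosomes) and of collided or stacked pairs (disomes) with RNA-seq, partly in lines that overexpressed a tagged form of the stop codon reader eRF1 and partly in cells transfected with siRNA. The groups used were ASCC3 knockdown and control, each with 2 RNA-seq libraries, and, as a second background, combined ASCC3 and 4EHP knockdown and 4EHP knockdown alone, each with 2 RNA-seq libraries. Monosome footprints (2 ASCC3 knockdown and 2 control libraries) and disome footprints (1 and 2 libraries) were set beside them. All transfected cells were grown in the same medium and were transfected at 75 nM siRNA, left for 72 h, transfected again at 30 nM and left for a further 24 h. The labels do not say what the control siRNA was, how much of each siRNA the combined knockdown received, or whether replicates came from separate cultures, so that the p-values only reflect how far these libraries lie apart, a spread that may be technical.

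HEK293 is a human embryonic kidney line, and Flp-In T-REx cells carry a site for inserting a tetracycline-inducible gene. ASCC3 is the helicase of the ASC-1 complex, also called the RQT complex. When a ribosome runs into a stalled one, the ubiquitin ligase ZNF598 marks the collided pair, and the complex then pulls the leading ribosome apart so that quality control of the nascent chain can follow. The same complex has been linked to the repair of alkylated DNA. 4EHP is a cap-binding protein that, with its GIGYF partners, represses the translation of messages that carry collided ribosomes.

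Deposited counts summed to 42091690 and 41224653 in the ASCC3 knockdown libraries and to 45434984 and 56402314 in the control libraries. A read lying in exons that several isoforms share was counted for each of them, so these sums exceed the reads. Transcripts whose counts moved together were therefore joined into 53886 features, each called a transcript below. The ASCC3 knockdown replicates differed more from each other than the control replicates, with an SD of their log2 difference of 0.280, against 0.130 for the control, across 12903 transcripts. The difference between the ASCC3 replicates went with coding length, at a Spearman correlation of -0.387 across those transcripts, against 0.0463 for the control replicates. The files hold transcript IDs without gene names, and the reference tables used here do not pair these IDs with genes. The level of the ASCC3 message, the genes of ribosome quality control, mRNA decay and the stress responses, and the markers of the cell line could therefore not be looked up, and the knockdown is given by its label alone. Below, CPM is counts scaled to 1000000 deposited counts, a level within 1 library that is not divided by transcript length.

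A small share of transcripts differed between ASCC3 knockdown and control libraries, in both directions. Of 33149 transcripts tested with edgeR's quasi-likelihood test at a Benjamini-Hochberg adjusted p of 0.05, 565 were higher (1.70%) and 402 lower (1.21%) in ASCC3 knockdown than in control libraries, each scaled by its sum of counts. Rises had a median log2 fold change of 0.67 and ranged from 0.37 to 4.69, with 115 of at least 2-fold. Falls had a median of -0.70 and ranged from -2.78 to -0.34, with 81 of at least 2-fold. Most of the large rises were of low level: at an average of at least 2 on the log2 CPM scale, 8 of 411 rises and 37 of 333 falls reached 2-fold, and the largest rise was 2.20. Shares of counts are given here of the sum over the joined transcripts, not of the deposited sum. The rises together took 3.61% and 3.74% of the counts in the ASCC3 knockdown libraries, against 2.54% and 2.47% in the control libraries. The falls together took 6.20% and 5.84% in the ASCC3 knockdown libraries, against 8.86% and 9.05% in the control libraries. These shares are those of transcripts picked for their difference and are given as a description. ASCC3 knockdown and control libraries did not overlap for any of the called transcripts, but neither did they for 18237 of the 33149 tested (55.0%).

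The balance of the 2 directions depended on the scaling. The median log2 fold change of all tested transcripts was 0.12 when libraries were scaled by their sums and 0.02 after TMM scaling, which sets the bulk of transcripts equal. With TMM scaling, 228 were higher (0.688%) and 597 lower (1.80%). All 402 falls were called under both scalings, and so were 228 of the 565 rises. A further 337 rises passed the threshold only without TMM scaling and 195 falls only with it, and none turned round. Relative to the median shift, falls therefore outnumbered rises.

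**Figure D1:**
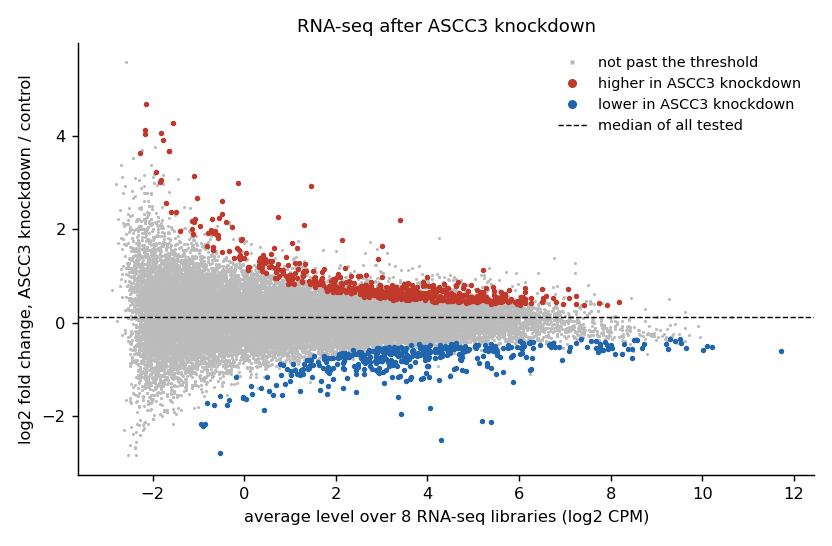
Log2 fold change of each tested transcript, ASCC3 knockdown over control (vertical axis), against its average level over the 8 RNA-seq libraries in log2 CPM (horizontal axis). Red points are the 565 transcripts called higher and blue points the 402 called lower, and the dashed line is the median of all 33149 tested, 0.12; above a level of 8 nearly all called points are falls.

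The strongest falls among well-expressed transcripts went far below the control in every library. Named transcripts were taken from the called ones with an average level of at least 4 on the log2 CPM scale whose libraries did not overlap, 168 falls and 192 rises. ENST00000216034.6, with a coding sequence of 143 codons, had 6.60 and 5.72 CPM in the ASCC3 knockdown libraries and 33.1 and 37.0 CPM in the control libraries. The second background showed a gap of the same kind, with 7.59 and 7.27 CPM in the combined knockdown and 32.5 and 25.4 CPM in the 4EHP knockdown. Every RNA-seq library that received ASCC3 siRNA lay below each one that did not. The gap between ASCC3 knockdown and control libraries was a condition of the choice. How many of all transcripts had such a gap over both backgrounds was not counted. The level of ENST00000216034.6 fell by 2.51 on the log2 scale (SE 0.14, edgeR Benjamini-Hochberg adjusted p = 2.39e-07) after ASCC3 knockdown. In the second background it fell by 1.97 (SE 0.14, edgeR adjusted p = 5.93e-06).

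ENST00000322088.11, with 590 codons, had 14.0 and 16.5 CPM in the ASCC3 knockdown libraries and 67.4 and 66.3 CPM in the control libraries. It had 16.8 and 16.6 CPM in the combined knockdown and 64.3 and 73.7 CPM in the 4EHP knockdown. The 4 libraries with ASCC3 siRNA were close to each other and far from the 4 without it. The log2 fold change was -2.13 (SE 0.12, edgeR adjusted p = 2.39e-07) against control and -2.05 (SE 0.12, edgeR adjusted p = 6.9e-07) in the second background. Another transcript, of 312 codons, 14.1 and 13.9 CPM in ASCC3 knockdown and 60.6 and 59.1 CPM in control libraries, had 17.7 and 15.8 CPM in the combined knockdown and 59.5 and 49.3 CPM in the 4EHP knockdown. It fell by 2.10 on the log2 scale (SE 0.12, edgeR adjusted p = 2.39e-07).

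The rises among well-expressed transcripts were smaller. ENST00000343597.4, with 735 codons, had 46.2 and 48.2 CPM in the ASCC3 knockdown libraries and 22.4 and 20.7 CPM in the control libraries, and 47.9 and 51.7 CPM in the combined knockdown against 30.9 and 30.3 CPM in the 4EHP knockdown. Again no library with ASCC3 siRNA overlapped one without it, though the gap to the control libraries was a condition of the choice. The log2 fold change was 1.13 (SE 0.11, edgeR adjusted p = 7.98e-05) against control and 0.70 (SE 0.10, edgeR adjusted p = 0.00477) in the second background. ENST00000322886.12, with 912 codons, had 27.7 and 33.6 CPM in the ASCC3 knockdown libraries and 16.5 and 16.8 CPM in the control libraries. In the second background its libraries overlapped, with 30.4 and 28.8 CPM in the combined knockdown and 19.9 and 29.8 CPM in the 4EHP knockdown. Its log2 fold change was 0.88 (SE 0.17, edgeR adjusted p = 0.0196) against control and 0.26 (SE 0.16, edgeR adjusted p = 0.482) in the second background. The call for ENST00000322886.12 was lost without ASCC3 knockdown replicate 2 (log2 fold change 0.73, edgeR adjusted p = 0.118), without control replicate 1 (0.86, edgeR adjusted p = 0.199) and without control replicate 2 (0.89, edgeR adjusted p = 0.261), whereas the other 3 named transcripts passed without each of the 4 replicates.

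**Figure D2:**
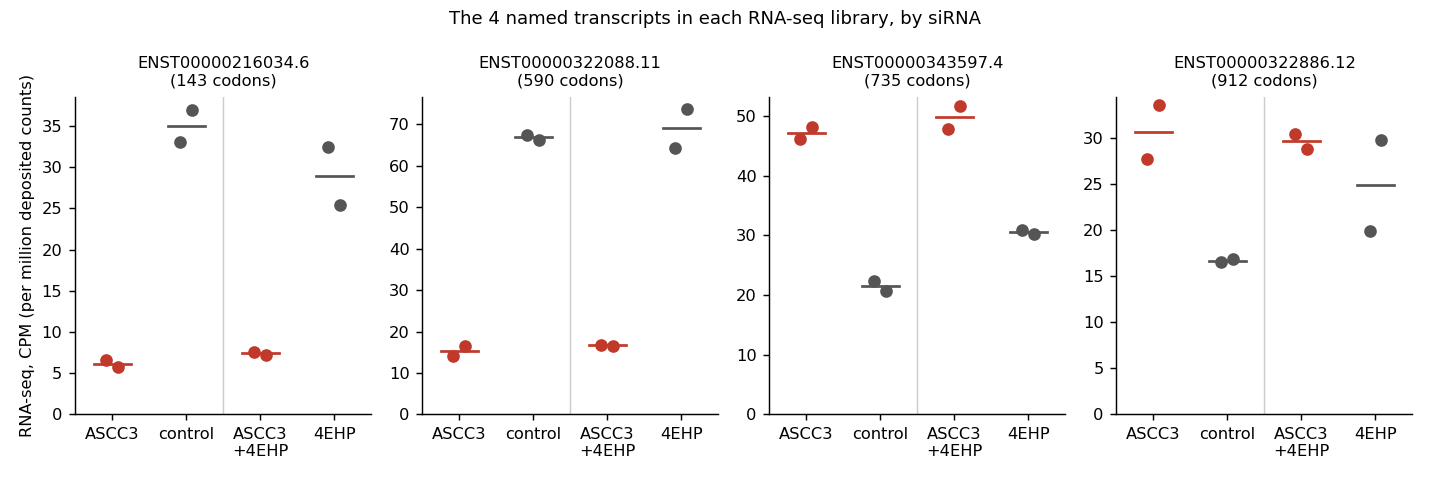
RNA-seq level in CPM (vertical axis, from 0) of the 4 named transcripts in each library, by siRNA; points are libraries, bars group means, red groups received ASCC3 siRNA and grey ones did not. The first 2 transcripts are far lower in the red groups (5.72 to 7.59 and 14.0 to 16.8 CPM), the third is higher (46.2 to 51.7 CPM), and the fourth overlaps between combined and 4EHP knockdown.

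The 15 strongest falls at that level ranged from -2.51 to -0.99 on the log2 scale and had coding sequences of 84 to 2203 codons, with a median of 312. All 15 were called with TMM scaling, 13 were also called lower in the second background, and 14 were called lower in monosomes. Over all tested transcripts, 0.434% were called lower in the second background and 3.60% in monosomes. At levels between 4 and 6, 7.95% were called lower in monosomes. In the second background all 15 had negative log2 fold changes, from -2.05 to -0.58. A transcript of 270 codons had 30.0 and 34.5 CPM in ASCC3 knockdown and 76.9 and 78.2 CPM in control libraries. A transcript of 1141 codons had 51.6 and 51.3 CPM in ASCC3 knockdown and 98.2 and 106 CPM in control libraries. The 2 not called in the second background were a transcript of 128 codons and one of 84 codons, with log2 fold changes of -0.76 and -0.58 there. The one of 128 codons had 7.51 and 6.65 CPM in ASCC3 knockdown against 24.7 and 25.2 CPM in control, but 14.3 and 10.8 CPM in the combined knockdown against 27.1 and 15.4 CPM in the 4EHP knockdown, where the replicates lay far apart.

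The 15 strongest rises at that level were between 0.74 and 1.13, and all but the first were smaller in size than every one of the 15 falls. They had coding sequences of 186 to 3131 codons, with a median of 845. All 15 passed with TMM scaling and 4 were also called in the second background, where log2 fold changes ran from 0.08 to 1.63. Of the 14 measured in monosomes, 5 were called higher, and log2 fold changes there ran from -0.23 to 0.94. Over all tested transcripts, 0.851% were called higher in the second background and 2.06% in monosomes. A transcript of 675 codons had 18.2 and 18.0 CPM in ASCC3 knockdown and 10.2 and 10.2 CPM in control libraries, and 41.4 and 39.1 CPM in the combined knockdown against 15.8 and 10.1 CPM in the 4EHP knockdown. The longest, of 3131 codons, had 75.5 and 96.7 CPM in ASCC3 knockdown and 54.0 and 49.2 CPM in control libraries. In the second background its libraries overlapped, with 73.9 and 75.9 CPM in the combined knockdown and 56.9 and 79.7 CPM in the 4EHP knockdown.

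The number past the threshold changed when single libraries were left out. Without ASCC3 knockdown replicate 1, 264 transcripts were higher and 169 lower; without ASCC3 knockdown replicate 2, 32 and 81; without control replicate 1, 8 and 43; without control replicate 2, 8 and 37. With a group of 1 library, that library is assumed to vary like the other groups. Transcripts called in the full comparison and without each library in turn numbered 6 rises and 34 falls. The falls that passed each time ranged from -2.51 to -0.77 and had a median of 305.5 codons. Of them, 29 were also called lower in the second background and 30 were called lower in monosomes. Over all tested transcripts these shares were 0.434% and 3.60%. Passing each time favours a low estimate of spread, which also enters the test in the second background. The 34 falls lay in 25 separate stretches of the transcript list.

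All of the rises that passed without each library were also called in the second background (against 0.851% higher over all tested). Of these rises, 5 were called higher in monosomes (against 2.06% over all tested). The largest, a transcript of 4463 codons, had 11.2 and 17.1 CPM in ASCC3 knockdown, 3.28 and 2.89 CPM in control, 21.8 and 17.3 CPM in the combined knockdown and 4.91 and 5.13 CPM in the 4EHP knockdown. It rose by 2.20 on the log2 scale (SE 0.20, edgeR adjusted p = 0.000178), and its monosome fold change of 1.22 did not pass the threshold (edgeR adjusted p = 0.145). A transcript of 378 codons had 8.91 and 10.7 CPM in ASCC3 knockdown and 3.10 and 3.16 CPM in control libraries, with 14.7 and 12.5 CPM in the combined knockdown and 4.45 and 6.86 CPM in the 4EHP knockdown. A transcript of 161 codons had 4.47 and 4.32 CPM in ASCC3 knockdown, 1.17 and 1.42 CPM in control, 10.1 and 8.76 CPM in the combined knockdown and 2.63 and 1.82 CPM in the 4EHP knockdown. Libraries with and without ASCC3 siRNA did not overlap for these 3, which their calls in both comparisons favour. The share of all transcripts with such a gap over both backgrounds was not counted.

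The combined and 4EHP knockdown libraries tested ASCC3 siRNA in a second background and share no library with the first comparison. Both comparisons came from 1 fit, with 1 estimate of spread per transcript. A low estimate favours a call in both, so the calls are not independent. In the second background, 282 transcripts were higher (0.851%) and 144 lower (0.434%) in the combined knockdown than in the 4EHP knockdown. With TMM scaling these were 166 and 252. Of the 565 rises after ASCC3 knockdown, 96 were also called higher there and none was called lower. The 96 are 17.0% of the rises and 34.0% of the 282. Of the 402 falls, 88 were also called lower there and none was called higher. The 88 are 21.9% of the falls and 61.1% of the 144. Against a median log2 fold change of 0.08 for all transcripts, 518 of the 565 rises lay above and 395 of the 402 falls at or below it. The median fold change of the rises was 0.38 in the second background against 0.67 in the first, and that of the falls -0.37 against -0.70; the calls were made on the first, which favours larger values there.

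The difference between the 2 backgrounds was itself tested and passed the threshold for 0 transcripts with edgeR. Without adjustment, 2512 had a p below 0.05, and DESeq2 called 0. That count rested on 4EHP knockdown replicate 1, without which 702 were higher and 1109 lower. The replicates of the 4EHP knockdown differed with an SD of 0.384 on the log2 scale across 12903 transcripts, and their difference moved with that between the ASCC3 knockdown replicates (Pearson 0.70 across these transcripts, replicate 1 minus replicate 2 in both). Without 4EHP knockdown replicate 1 the second background gave 1682 higher and 1183 lower transcripts, without combined knockdown replicate 1 it gave 6 and 7, and without combined knockdown replicate 2 it gave 19 and 14.

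**Figure D3:**
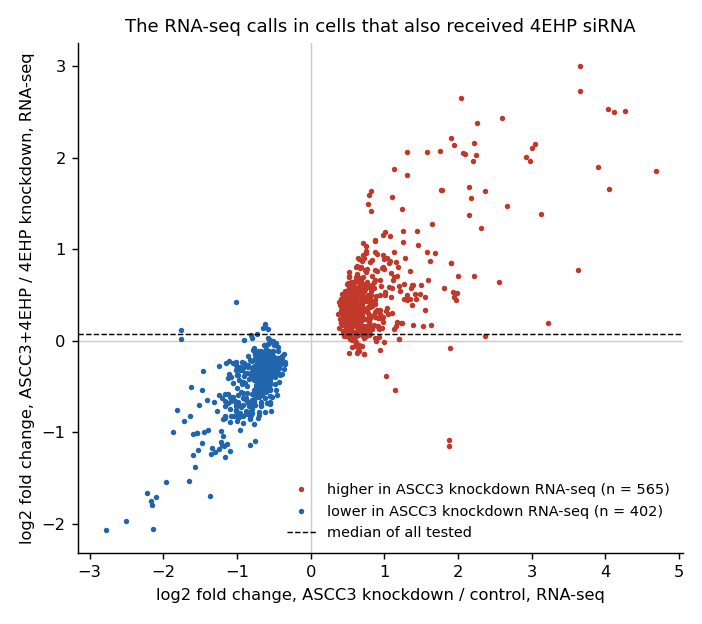
Log2 fold change in the second background, combined over 4EHP knockdown (vertical axis), against that of ASCC3 knockdown over control (horizontal axis), for the 565 transcripts called higher (red) and the 402 called lower (blue) in the first comparison. The dashed line is the median of all tested transcripts in the second background, 0.08; 518 red points lie above it and 395 blue points at or below it.

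Calls were spread unevenly over levels, and the most abundant transcripts stood apart. Among the 117 transcripts with an average level over 8 on the log2 CPM scale, 1 was higher (0.855%) and 23 lower (19.7%) in ASCC3 knockdown, with a median log2 fold change of -0.25, against 0.12 for all transcripts tested. With TMM scaling 0 were higher and 29 lower (24.8%). Both ASCC3 knockdown libraries lay below the control mean in this class, with a median log2 ratio of -0.18 for replicate 1 and of -0.32 for replicate 2. In the second background the median log2 fold change of the class was -0.11. Between levels of 4 and 6, 162 of 3970 transcripts were higher (4.08%) and 104 lower (2.62%). The 23 falls of the top class were 22 without ASCC3 knockdown replicate 1, 6 without ASCC3 knockdown replicate 2, 1 without control replicate 1 and 1 without control replicate 2. Level here is a count of reads and grows with transcript length as well as abundance.

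In monosome footprints the same top class went the other way. Of its 117 transcripts, 48 were higher (41.0%) and 7 lower (5.98%) in ASCC3 knockdown, with a median log2 fold change of 0.13 against -0.01 for all transcripts tested in both assays. Without single monosome libraries the 48 rises were 39 and 33 (ASCC3 knockdown replicates 1 and 2 left out) and 39 and 29 (control replicates 1 and 2 left out). Footprints relative to RNA, tested as the difference between the 2 changes, were higher for 41 of the 117 and lower for none. Between levels of 6 and 8 they were higher for 22 of 648 and lower for 4. Both RNA-seq and footprint levels are shares of a library, so that a change in either means a change relative to the other transcripts.

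**Figure D4:**
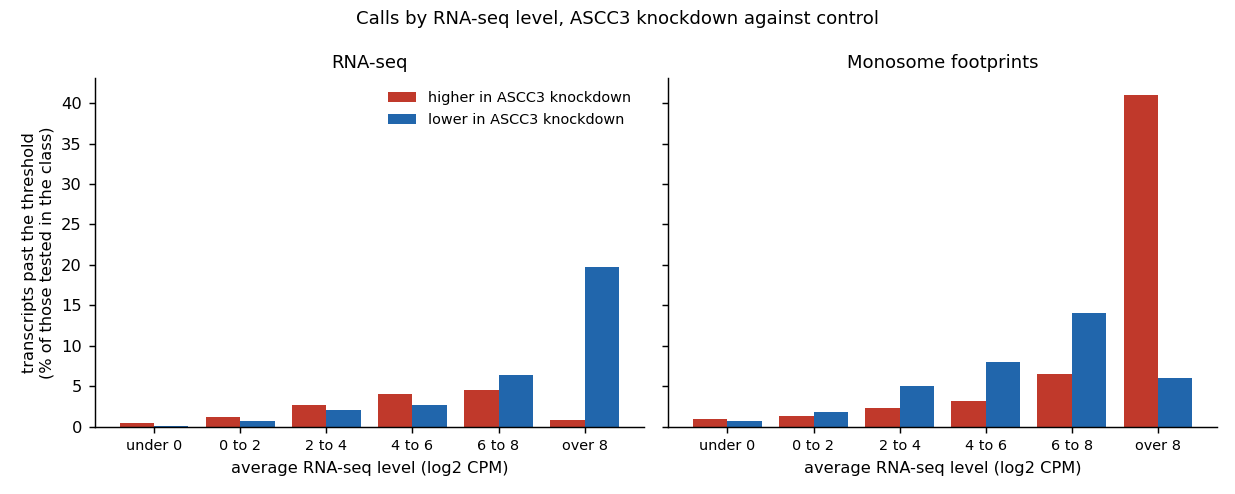
Share of tested transcripts past the threshold (vertical axis, percent) by average RNA-seq level in log2 CPM (horizontal axis), in RNA-seq (left panel) and monosome footprints (right panel), ASCC3 knockdown against control; red bars are higher and blue bars lower in ASCC3 knockdown. In the class over 8, 19.7% were lower in RNA-seq and 41.0% higher in monosomes.

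A larger share of long than of short coding sequences was called higher, and the 2 ASCC3 knockdown replicates differed in this class. The median coding length was 582 codons among rises, 295 among falls and 214 among all tested. Called transcripts were also of higher level, with a median log2 CPM of 3.28 for rises and 3.54 for falls against 1.18 for all tested. At levels of at least 2 on the log2 CPM scale, the median lengths were 640 codons for rises, 313 for falls and 367 for all tested. In the class above 1200 codons, which held 1497 transcripts, 100 were higher (6.68%) and 9 lower (0.601%), and with TMM scaling 43 and 12. Of the 11478 with up to 150 codons, 60 were higher (0.523%) and 77 lower (0.671%). In monosomes, 26 of 1248 transcripts above 1200 codons were higher (2.08%) and 62 lower (4.97%). Of the 8536 with up to 150 codons there, 130 were higher (1.52%) and 197 lower (2.31%). Shares of counts were again taken of the sum over the joined transcripts. In RNA-seq, transcripts of over 1200 codons took 10.72% and 12.77% of the counts in the ASCC3 knockdown libraries, against 9.80% and 9.75% in the control libraries. They took 10.58% and 10.31% in the combined knockdown and 9.58% and 12.00% in the 4EHP knockdown. ASCC3 knockdown replicate 2 and 4EHP knockdown replicate 2 were the highest of the 8 libraries, and 4EHP knockdown replicate 1 the lowest. The median log2 ratio of the class to the control mean was 0.14 in ASCC3 knockdown replicate 1 and 0.39 in replicate 2, and its median log2 fold change in the second background was 0.01. The 100 rises of the class were 75 without ASCC3 knockdown replicate 1, 6 without replicate 2, and 2 and 1 without control replicates 1 and 2. A gap of 2 libraries against 2 cannot give an exact two-sided permutation p below 0.333, so the shares were not tested.

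Monosome footprints measured the same knockdown at the level of translating ribosomes, in libraries of 4677576 and 14276001 counts for ASCC3 knockdown and 20183334 and 18268812 for control. Of 28238 transcripts tested, 581 were higher (2.06%) and 1016 lower (3.60%) in ASCC3 knockdown. These counts came to 150 and 320 without ASCC3 knockdown monosome replicate 2, to 271 and 583 without control monosome replicate 1 and to 287 and 624 without control monosome replicate 2. Falls and rises in monosomes are counted here as calls past the threshold. Of the 399 RNA falls measured there, 210 were also called lower (52.6%) and 21 higher (5.26%). Of the 502 RNA rises measured there, 60 were also called higher (12.0%) and 0 lower. By sign alone, 332 of the falls were negative in monosomes and 67 positive, and 378 of the rises were positive and 124 negative. Of all transcripts tested in both assays, 12766 were positive and 13579 negative. The 210 shared falls were 20.7% of all monosome falls and the 60 shared rises 10.3% of all monosome rises. Of the falls called without ASCC3 knockdown RNA-seq replicate 2, 65 of 81 fell in monosomes (80.2%) and 4 rose.

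Both named falls were also lower in footprints. ENST00000216034.6 had 4.92 and 6.09 CPM in the ASCC3 knockdown monosome libraries and 28.4 and 30.2 CPM in the control monosome libraries, which is -2.34 on the log2 scale (SE 0.13, edgeR adjusted p = 2.77e-21). ENST00000322088.11 had 29.7 and 32.2 CPM in ASCC3 knockdown monosomes and 154 and 151 CPM in control monosomes, which is -2.28 on the log2 scale (SE 0.08, edgeR adjusted p = 2.34e-32). Disomes pointed the same way, with 5.44 CPM in the 1 ASCC3 knockdown disome library and 23.3 and 20.0 CPM in the control disome libraries for ENST00000216034.6, and 13.3 CPM against 69.3 and 60.9 CPM for ENST00000322088.11. The disome values rest on 9 and 22 counts in the ASCC3 knockdown library, with exact 95% Poisson intervals of 2.49 to 10.3 CPM and 8.33 to 20.1 CPM that cover counting error only.

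ENST00000343597.4 had 38.3 and 29.8 CPM in ASCC3 knockdown monosomes and 17.9 and 18.3 CPM in control monosomes, which is 0.85 on the log2 scale (SE 0.10, edgeR adjusted p = 8.79e-09). ENST00000322886.12 had 20.1 and 16.5 CPM in ASCC3 knockdown monosomes and 12.8 and 13.6 CPM in control monosomes, which is 0.42 on the log2 scale (SE 0.12, edgeR adjusted p = 0.0229). The monosome libraries of the 2 groups did not overlap for these 4 transcripts, nor for 13123 of all 28238 tested (46.5%). The change of footprints relative to RNA did not pass the threshold for any of them.

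**Figure D5:**
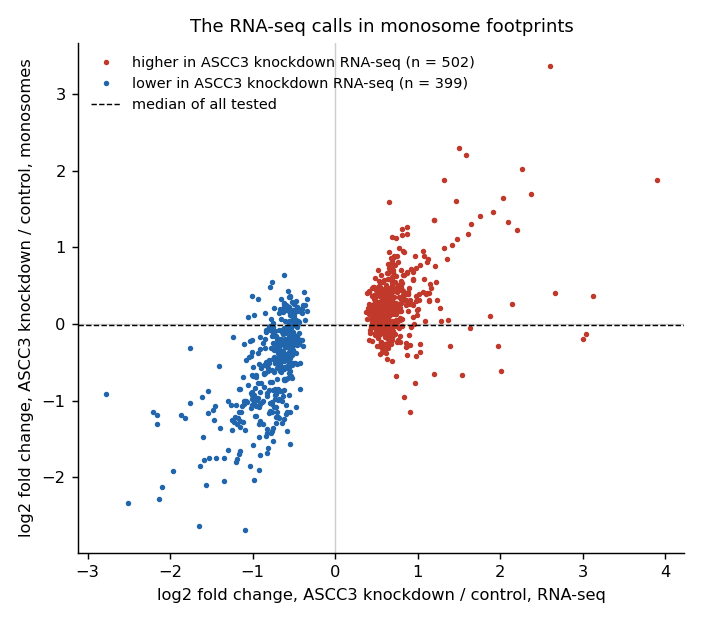
Log2 fold change in monosome footprints (vertical axis) against that in RNA-seq (horizontal axis), both ASCC3 knockdown over control, for the transcripts called higher (red, 502 measured) and lower (blue, 399 measured) in RNA-seq. Most blue points lie below the dashed median of all tested (-0.01) and the strongest falls are low in both assays, while the blue points above 0 include the 21 transcripts called lower in RNA and higher in monosomes.

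The 21 transcripts that fell in RNA and rose in monosomes are given next. Their log2 fold changes ran from -1.01 to -0.34 in RNA-seq and from 0.20 to 0.54 in monosomes; they were chosen by both calls, so these values are a description. They were abundant and short, with a median level of 8.28 on the log2 CPM scale, 17 of them at 6 or more, and a median of 177 codons. All 402 RNA falls had a median level of 3.54 and a median of 295 codons. Small changes pass the threshold more readily at high counts, so the choice by both calls also favours a high level. A transcript of 204 codons had 515 and 480 CPM in ASCC3 knockdown RNA-seq and 729 and 745 CPM in control RNA-seq, but 361 and 372 CPM in ASCC3 knockdown monosomes and 301 and 276 CPM in control monosomes. A transcript of 438 codons had 665 and 642 CPM in ASCC3 knockdown RNA-seq and 941 and 964 CPM in control RNA-seq, but 356 and 368 CPM in ASCC3 knockdown monosomes and 290 and 279 CPM in control monosomes. The longest of the 21, with 859 codons, had 757 and 803 CPM in ASCC3 knockdown RNA-seq and 1150 and 1200 CPM in control RNA-seq, but 1330 and 1280 CPM in ASCC3 knockdown monosomes and 1120 and 1080 CPM in control monosomes. For these 3 the fold change of footprints relative to RNA was 0.91, 0.89 and 0.84 on the log2 scale, which their choice by both calls had to make positive. In the second background 2 of the 21 were called lower in RNA, and their median log2 fold change there was -0.23. The group was 5.26% of the 399 RNA falls measured in monosomes, and with TMM scaling in both assays 33 of 593 (5.56%). It was smaller, out of fewer falls, when RNA was called without ASCC3 knockdown replicate 2.

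Over all transcripts, footprints relative to RNA were higher for 88 (0.253%) and lower for 24 (0.0690%) of 34788 tested, and with TMM scaling for 98 and 9. The 88 were 53 and 47 without control RNA-seq replicates 1 and 2, 47 without ASCC3 knockdown monosome replicate 2, and 48 and 44 without control monosome replicates 1 and 2. The 24 were 44 without ASCC3 knockdown RNA-seq replicate 1 and between 4 and 10 without each of those 5 libraries. Of the 402 RNA falls, 52 were among the higher and 2 among the lower. Of the 565 RNA rises, none was among the higher and 8 among the lower. The RNA-seq libraries enter both calls, which pushes falls towards a higher relative value and rises towards a lower one, so these counts are not independent of the RNA calls. The 2 falls with a still stronger loss of footprints had 278 and 2203 codons. The one of 2203 codons had 28.7 and 28.0 CPM in ASCC3 knockdown RNA-seq and 60.4 and 60.8 CPM in control RNA-seq, and 27.3 and 28.7 CPM in the combined knockdown against 66.4 and 62.0 CPM in the 4EHP knockdown. Its footprints came to 3.42 and 4.48 CPM in ASCC3 knockdown monosomes and 28.5 and 25.5 CPM in control monosomes. RNA fell by 1.10 and footprints by 2.68 on the log2 scale, a difference of -1.60 (SE 0.18, edgeR adjusted p = 1.06e-05).

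Among the 34 falls that passed without each RNA-seq library, 4 lost RNA with a smaller change of footprints. A transcript of 299 codons had 35.5 and 37.8 CPM in ASCC3 knockdown RNA-seq and 76.0 and 76.1 CPM in control RNA-seq, but 98.3 and 105 CPM in ASCC3 knockdown monosomes and 102 and 90.8 CPM in control monosomes. Its RNA libraries were far apart and its monosome libraries overlapped. The difference between the changes was 1.13 on the log2 scale (SE 0.13, edgeR adjusted p = 1.15e-05). A transcript of 479 codons had 26.9 and 26.2 CPM in ASCC3 knockdown RNA-seq and 53.5 and 51.3 CPM in control RNA-seq, with 28.9 and 32.2 CPM in ASCC3 knockdown monosomes and 28.0 and 29.3 CPM in control monosomes, a difference of 1.08 (SE 0.16, edgeR adjusted p = 0.000332). The other 2 had 201 and 404 codons and differences of 1.28 and 0.60. In the second background, RNA of the transcripts of 299 and 404 codons changed by -0.61 and -0.54 (edgeR adjusted p = 0.0109 and 0.00871). Those of 479 and 201 codons changed by -0.38 and -0.45 there and were not called (edgeR adjusted p = 0.173 and 0.0715).

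Translational efficiency was taken as the log2 ratio of monosome to RNA CPM in the 4EHP knockdown libraries. These libraries lie outside the ASCC3 knockdown and control groups, but they shared the fit that gave the calls, and their RNA replicates differed along with those of ASCC3 knockdown, as given above. The median was -1.15 for the rises, 0.17 for the falls and -0.18 for all tested transcripts. Restricted to levels of at least 2 on the log2 CPM scale, the medians were -1.19 for 411 rises, 0.14 for 333 falls and -0.32 for all 12903. The log2 ratio of disome to monosome CPM in control footprint libraries had a median of -0.31 for the rises, -0.73 for the falls and -0.72 for all tested. Rises were also longer, as given above, and these ratios can vary with coding length; the part of length was not tested.

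Called transcripts were often close to each other in the transcript list, where isoforms of a locus lie together. Of the 565 rises, 365 lay within 40 lines of another rise, in 334 separate stretches, and of the 402 falls 242 lay within 40 lines of another fall, in 247 stretches. Within 40 lines of a transcript of the opposite direction lay 123 rises and 114 falls. Counts of transcripts are therefore not counts of genes.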

How the data were processed

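Per the submitters' processing notes, reads were handled with STAR 2.7.0a and UMI-tools 1.1.1 on genome build hg38; the counter, annotation release and strand setting were not given in the sources used here. Per the labels, a stranded total RNA kit was used for RNA-seq. The deposited files give a whole-number count per transcript for each library and a coding length in codons, which is 10 codons shorter in the RNA-seq files than in the footprint files; the footprint length was used. Depth is given as the sum of the deposited counts of a library.

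Isoforms within 40 lines were joined, keeping the one with the most counts, where their replicate differences correlated above 0.7 over 20 replicate pairs, after removal of 2 components, among 60189 transcripts with a total count of at least 500, or where low counts were identical. Of 97742 transcripts with counts, 53886 features remained. RNA-seq was tested in edgeR 4.0.16 (R 4.3.3) with the quasi-likelihood F test, robust dispersion, all 8 RNA-seq libraries in the fit, the sum of counts as library size and low counts filtered with filterByExpr (minimum count 10); monosomes with all 10 monosome libraries; footprints relative to RNA as an interaction. Tests are two-sided, adjusted by Benjamini-Hochberg over all features tested, with a threshold of 0.05. Ratios of levels used a pseudocount of 0.1 CPM. Scripts were tested on simulated counts.

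Named transcripts are the 2 with the largest rise and the 2 with the largest fall among called ones whose average log2 CPM was 4 or more, with no overlap between libraries; a rule that named more by gene symbol, and the gene lists, could not be applied without gene names. Members and lists were chosen with earlier results of these data known, and transcripts described by length alone were chosen after their values were seen. TMM scaling, DESeq2 1.42.0, no filter, a replicate block, a coding length offset, unjoined isoforms, the 4 libraries alone and each replicate left out were tried.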

Additional observations from a re-analysis of the deposited data

How the results depend on the processing

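For ASCC3 knockdown against control, the higher and lower transcripts numbered 228 and 597 with TMM, 198 and 651 with DESeq2, 1916 and 765 without a filter, 1433 and 800 with only the 4 libraries, 1405 and 1035 with unjoined isoforms and 243 and 662 with a coding length offset. Leaving out a replicate gave 8 to 264 higher and 37 to 169 lower. For combined against 4EHP knockdown the counts were 166 and 252 with TMM, 118 and 292 with DESeq2, 921 and 787 without a filter, and 6 to 1682 and 7 to 1183 with a replicate left out. The difference between the backgrounds gave 88 higher and 756 lower without a filter, and 0 to 702 and 0 to 1109 with a replicate left out. Monosome counts were 218 and 413 with DESeq2, and 150 to 544 and 320 to 860 with a replicate left out. Footprints relative to RNA gave 9 lower with TMM, 185 and 15 with DESeq2, 145 and 146 without a filter, and 44 to 111 and 4 to 44 with a replicate left out. The numbers of transcripts tested also differed. In RNA-seq they were 33149 with TMM, 19456 with DESeq2, 48764 without a filter, 31453 with only the 4 libraries and 70307 with unjoined isoforms. For footprints relative to RNA they were 34788 with TMM, 2668 with DESeq2 and 53351 without a filter. DESeq2 tested 25128 in the second background and 12722 in monosomes. The causes were not tested. Rises shared by RNA and monosomes were 60 of 502 measured in both (12.0%) in the report and 29 of 181 (16.0%) with TMM. Fewer were shared, out of fewer rises, with RNA called without ASCC3 knockdown replicate 2.

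A replicate block gave 635 higher and 415 lower in RNA-seq, 312 and 173 in the second background and 799 and 1246 in monosomes. Replicate differences of the compared groups correlated at -0.01 in RNA-seq, at 0.01 in monosomes and at -0.23 in the second background. By this check the numbers were not taken to pair the samples. Across the 2 backgrounds, those of ASCC3 knockdown correlated at 0.70 with 4EHP knockdown and at -0.42 with the combined knockdown, in RNA-seq. With the combined knockdown's numbers crossed in the block, an alternative added after seeing the data, the second background gave 751 and 387. The log2 fold change of ENST00000322886.12 ranged from 0.73 to 1.01 with a replicate left out. An alternative with 1 transcript per gene was not run, as no gene names were at hand. With 2 libraries per group, changes within the spread between replicates were not detectable.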
